A study of Homo sapiens with 16 samples.

Results

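The genes described here are 10 abundant long non-coding RNAs (lncRNAs), found by their gene symbol among 66023 genes with a row in the count table. They fall into 3 nuclear RNAs (MALAT1, NEAT1 and KCNQ1OT1) and 7 spliced or cytoplasmic RNAs (OIP5-AS1, NORAD, GAS5, SNHG1, SNHG5, SNHG8 and ZFAS1). All 10 had counts in every sample, from a lowest count of 803 for SNHG8 to a highest of 764485 for MALAT1, and all 10 passed the filter on low counts in every comparison.

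RNA was sequenced from 6 lines of SW480, a long-established human cell line that came from an adenocarcinoma of the colon. Parental cells (n = 2) were unmodified and carried no vector. The other 5 lines were stably transduced with lentivirus and selected with puromycin. shScrambled (n = 2) carried a non-targeting shRNA in a pLKO.1-puro plasmid, shAjuba1 (n = 3) an shRNA against the coding region of Ajuba, and shAjuba2 (n = 3) an shRNA against its non-coding region. Ajuba OE (n = 3) carried an Ajuba construct whose vector name gives a CMV promoter, FLAG and HA tags and puromycin resistance, and Control (n = 3) the same construct after the Ajuba sequence had been cut out. Nothing in the labels says that the samples of a line were separate cultures or transductions, and the paper speaks of technical replicates, so the p-values measure only the spread between these samples. Total counts were 30132396 to 69684675 read pairs per sample. AJUBA itself was lower in shAjuba1 than in shScrambled (log2 fold change -0.73), did not pass the threshold in shAjuba2 (-0.46, adjusted p = 0.0773 in the quasi-likelihood test of edgeR with Benjamini-Hochberg adjustment, and -0.55 with adjusted p = 4.81e-04 without shAjuba2 2) and was higher in Ajuba OE than in Control (2.56). The summed level of 9 colon epithelial markers was 2902 to 7009 RPM (counts per 1000000 counts of the sample), most of it from KRT8 and KRT18, and EPCAM was 48.3 to 242 RPM, whereas CDH17 and LGALS4 were at most 1.34 and 0.938 RPM. The summed level of 14 fibroblast, leukocyte and endothelial markers was 14.9 to 42.7 RPM, and DCN, COL3A1, PTPRC and CDH5 were at 0 in some samples.

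MALAT1 lies in nuclear speckles, the bodies that store splicing factors, and NEAT1 is the scaffold on which paraspeckles are built. Both have 3′ ends that are cut by RNase P and end in an A-rich stretch encoded in the genome, without an ordinary poly(A) tail on MALAT1 and on the long form of NEAT1. KCNQ1OT1 stays on the chromatin of the imprinted domain in which it is transcribed. GAS5, SNHG1, SNHG5, SNHG8 and ZFAS1 are host genes whose introns release small nucleolar RNAs (snoRNAs) that guide the modification of ribosomal RNA, and their spliced exons are exported, scanned by ribosomes and broken down. NORAD binds the PUMILIO proteins in the cytoplasm, and OIP5-AS1 binds the miRNA miR-7 and the protein HuR.

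MALAT1 (ENSG00000251562) lies on chromosome 11 of GRCh38 from 65497640 to 65508073, on the plus strand, and its main transcript has 1 exon. NEAT1 (ENSG00000245532) lies upstream on the same strand, from 65422774 to 65445540, also with 1 exon in its main transcript. Its short and long forms share their start, so gene counts cannot tell them apart. KCNQ1OT1 (ENSG00000269821) is on chromosome 11 from 2597308 to 2700003 on the minus strand, within the gene KCNQ1. OIP5-AS1 (ENSG00000247556) is on chromosome 15 from 41283958 to 41322392 on the plus strand. NORAD (ENSG00000260032) is on chromosome 20 on the minus strand, from 36045618 to 36051018, as 1 exon of 5401 bases. Among the host genes, GAS5 (ENSG00000234741) is on chromosome 1 from 173858559 to 173868882 on the minus strand, and SNHG1 (ENSG00000255717) on chromosome 11 from 62851978 to 62855953 on the minus strand. SNHG5 (ENSG00000203875) is on chromosome 6 from 85650491 to 85678932 on the minus strand, SNHG8 (ENSG00000269893) on chromosome 4 from 118278703 to 118285316 on the plus strand, and ZFAS1 (ENSG00000177410) on chromosome 20 from 49278178 to 49299600 on the plus strand.

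NORAD is shown first by the sequence it is known for. Its GENCODE transcript holds 15 copies of TGTANATA, the motif that PUMILIO proteins bind, on the transcript strand, 10 of them TGTATATA, 4 TGTAAATA and 1 TGTACATA. Of 23151 transcripts of the genes tested (1 main transcript a gene), 22.4% held at least 1 copy, 0.02% at least as many copies as NORAD, and 0.1% at least its density of 2.78 copies per 1000 bases. A pair of places where copies lie 1 base apart are printed 5′ to 3′ with the motifs in capitals, from chr20:36049493-36049529 and chr20:36048296-36048332 of GRCh38, minus strand.
NORAD upstream pair: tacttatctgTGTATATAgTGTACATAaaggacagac
NORAD downstream pair: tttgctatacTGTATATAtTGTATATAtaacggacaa
NEAT1 held 6 copies, KCNQ1OT1 (its longest transcript) 9 and ZFAS1 1, at lower densities of 0.264, 0.0982 and 0.221 per 1000 bases, and the other 6 lncRNAs held none.

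The first 30 bases of host transcripts are shown because several start as ribosomal protein mRNAs do, with a C followed by at least 4 pyrimidines. Such a start was found in 75.9% of 79 main transcripts of cytosolic ribosomal protein genes and in 4.06% of all 23151 transcripts. The GENCODE start of GAS5 is chr1:173867960-173867989, minus strand, and that of ZFAS1 is chr20:49278642-49278671, plus strand. The RefSeq start of SNHG5 (GRCh38.p14) is chr6:85678704-85678733, minus strand, and that of SNHG1 is chr11:62855856-62855885, minus strand. Capitals mark the opening run of pyrimidines.
GAS5: CTTTTCgaggtaggagtcgactcctgtgag
ZFAS1: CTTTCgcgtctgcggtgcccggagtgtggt
SNHG5: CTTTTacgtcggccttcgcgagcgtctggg
SNHG1: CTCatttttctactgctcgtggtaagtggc
The run of SNHG1 has 3 bases and falls short of the definition. In the RefSeq promoters, 4.07% of 35116 starts fulfilled it, and 60.3% of 78 starts of ribosomal protein genes. The annotations differ for GAS5, whose RefSeq start opens with a, and for SNHG5, whose GENCODE start opens with g. The starts taken for SNHG8, NORAD, MALAT1 and OIP5-AS1 did not fulfil it in either annotation, although 5 of 15 GENCODE transcripts of SNHG8 did. RefSeq starts of NEAT1 and KCNQ1OT1 were not used here.

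The plot of levels by library shows the RPM of each lncRNA in all samples. MALAT1 was among the 10 highest genes in every sample and NEAT1 among the 14 highest, and the 3 nuclear RNAs together took 0.872% to 2.33% of all counts. Per exon length, the median level was 960.0 RPKM for MALAT1, 237.6 RPKM for NEAT1 and 214.5 RPKM for NORAD, followed by 44.9 RPKM for SNHG1 and 34.6 RPKM for GAS5. The level per length was lowest for KCNQ1OT1, at 1.33 RPKM over 92625 annotated exon bases. These lengths join the exons of all annotated transcripts. They were 4932 bases for GAS5 and 3976 for SNHG1, whose main transcripts have 768 and 1162 bases. For KCNQ1OT1 the main transcript has 679 bases, and for NORAD both lengths were 5401. The order of the levels therefore depends on the length taken. From the lowest to the highest sample the RPM differed 3.34-fold for SNHG5, 3.2-fold for MALAT1, 2.54-fold for NEAT1 and 2.42-fold for NORAD, and 1.45-fold to 1.73-fold for the other 6. Across the 6 lines 3 of the 10 differed by edgeR's quasi-likelihood test (NORAD, adjusted p = 8.05e-06; SNHG8, adjusted p = 0.00383; NEAT1, adjusted p = 0.0372), against 45.7% of 23597 genes tested. NEAT1 missed the threshold when Parental 2, shAjuba2 1, Ajuba OE 3 or any shAjuba1 sample was left out (adjusted p up to 0.126, edgeR). MALAT1 passed without Ajuba OE 1 (adjusted p = 0.0425), GAS5 without shAjuba2 2 (0.0416), OIP5-AS1 without Control 2 (0.0299) and SNHG5 without Ajuba OE 2 (0.0225).

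**Figure D1:**
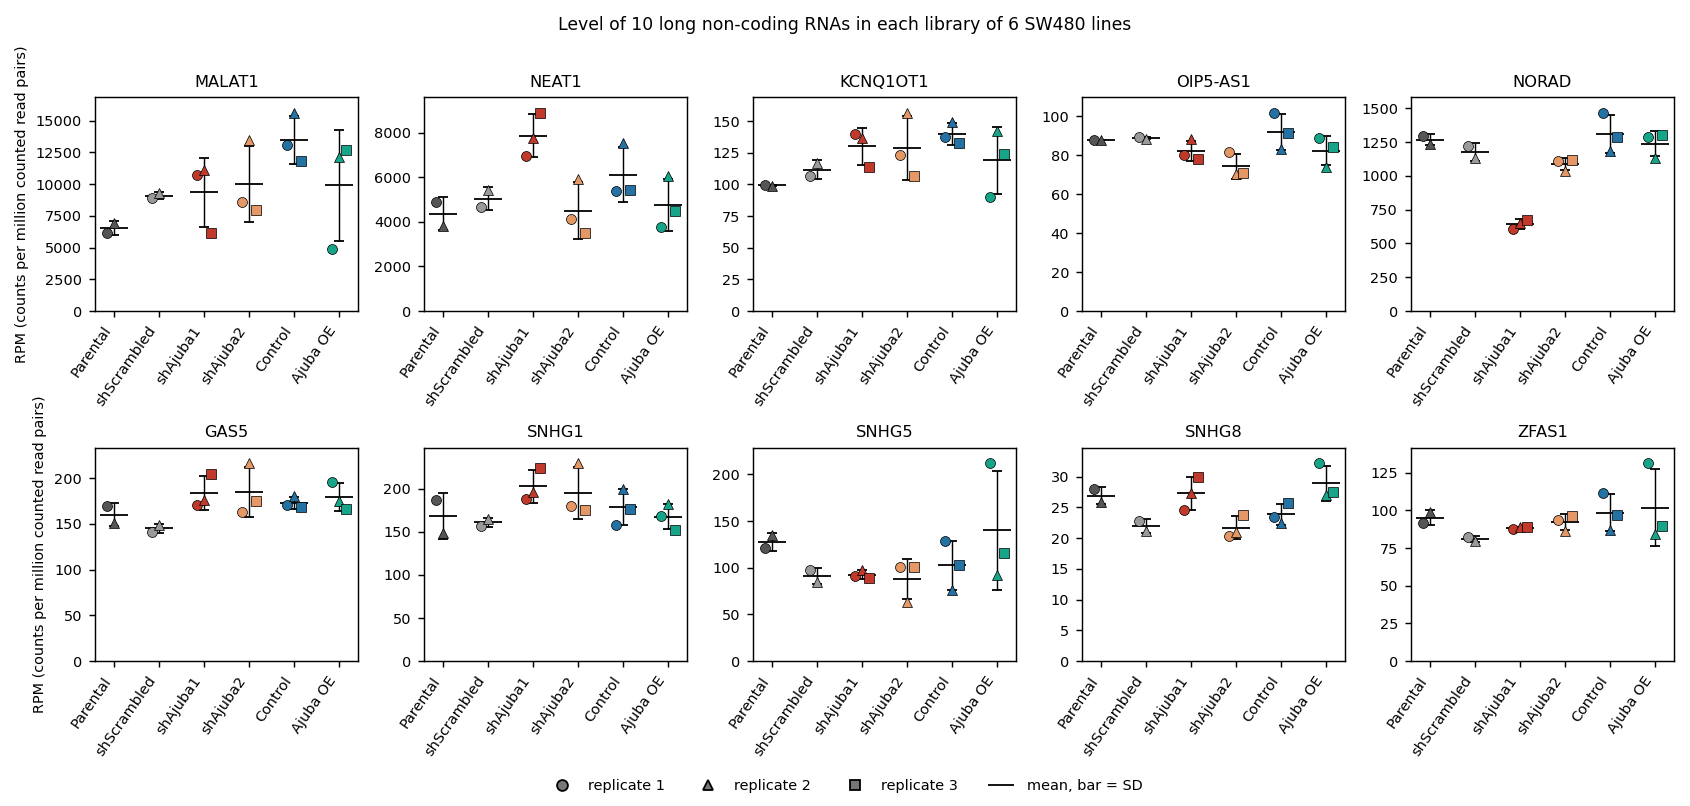
RPM (vertical axis, counts per 1000000 counted read pairs, from 0) of each of the 10 lncRNAs in the 16 libraries, grouped by line, with 1 symbol per library by replicate number and a black line and bar for mean and SD. NORAD lies between 603 and 674 RPM in shAjuba1 and at 1034 RPM or more in every other library, and MALAT1 spreads from 4879 to 12713 RPM within Ajuba OE alone.

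By the mean of the lines, MALAT1 was lowest in Parental cells, with 6158 and 6944 RPM, against 8891 and 9278 RPM in shScrambled and 13064, 15595 and 11856 RPM in Control. It was 10756, 11112 and 6184 RPM in shAjuba1, 8579.6, 13492 and 7967 RPM in shAjuba2, and 4879, 12156 and 12713 RPM in Ajuba OE. Only the neighbours Parental and shScrambled in the order of the line means did not overlap. shAjuba1 3 and Ajuba OE 1 lay far below the other samples of their lines, and the SD was 29.4% of the mean in shAjuba1 and 44.1% in Ajuba OE. Against shScrambled the log2 fold change was 0.03 (standard error 0.191) in shAjuba1 and 0.10 (standard error 0.262) in shAjuba2. Ajuba OE had a value of -0.37 relative to Control (standard error 0.356), and none of these passed the threshold. Without shAjuba1 3 the difference in shAjuba1 was 0.26 (adjusted p = 0.0262, edgeR), and KCNQ1OT1 then passed as well (0.30, adjusted p = 1.32e-04, edgeR), so that both calls turned on 1 library. On the opposite strand the annotation places the lncRNA TALAM1, which covers 77.8% of the exon bases of MALAT1 and has no row in the counts.

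NEAT1 was highest in shAjuba1, with 6963, 7756 and 8882 RPM. It was 4675 and 5417 RPM in shScrambled, 4122, 5926 and 3494 RPM in shAjuba2, 4899.7 and 3837 RPM in Parental, 5401, 7545 and 5429.8 RPM in Control, and 3756, 6048 and 4476 RPM in Ajuba OE. All 3 shAjuba1 samples lay above both shScrambled samples, but no neighbours in the order of the 6 lines were free of overlap, since Control 2 reached into the range of shAjuba1. KCNQ1OT1 varied less, from 90.4 RPM in Ajuba OE 1 to 156 RPM in shAjuba2 2. Its Parental samples, with 99.0 and 99.5 RPM, lay below every sample of the 4 lines shScrambled, shAjuba1, shAjuba2 and Control.

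NORAD had 603, 649 and 674 RPM in shAjuba1, 1107, 1034 and 1114 RPM in shAjuba2, and 1220.5 and 1131 RPM in shScrambled. It had 1294 and 1238 RPM in Parental, 1463, 1186 and 1287 RPM in Control, and 1285, 1129.9 and 1301 RPM in Ajuba OE. The order began with shAjuba1, shAjuba2 and shScrambled, which did not overlap each other, and from shScrambled upward each line overlapped with the next. OIP5-AS1 varied least of the 10, between 70.3 and 102 RPM, and was lowest in shAjuba2 with 82.0, 70.3 and 70.9 RPM.

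Of the host RNAs, GAS5 ranged from 142 to 216 RPM and SNHG1 from 149 to 229 RPM, both with the highest sample in shAjuba2 2. SNHG5 ranged from 63.4 RPM in shAjuba2 2 to 212 RPM in Ajuba OE 1. ZFAS1 ranged from 79.4 RPM in shScrambled 2 to 131 RPM in Ajuba OE 1. SNHG8 was the least abundant, between 20.3 and 32.2 RPM. In Ajuba OE 1, SNHG5, SNHG8 and ZFAS1 had their highest level and MALAT1 and KCNQ1OT1 their lowest level of all 16 samples, and this library also had the highest sum of ribosomal protein mRNAs (46008 RPM against 13804 to 40925 RPM in the others).

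The comparison of shAjuba1 with shScrambled asks what changed on knockdown with the shRNA against the coding region. Of the 10 lncRNAs, 5 passed the threshold (adjusted p under 0.05), 4 higher and 1 lower, against 38.4% of all genes tested (8103 of 21082) and 26.8% of the lncRNA genes tested (1071 of 4003). The count alone therefore does not set the 10 apart from the other genes, and their median log2 fold change was 0.16 against -0.01 over all genes tested. NORAD fell to 0.540 times its shScrambled level (log2 fold change -0.89, standard error 0.088, adjusted p = 6.89e-06, edgeR). NEAT1 rose 1.54-fold (log2 fold change 0.62, standard error 0.111, adjusted p = 7.67e-04, edgeR). In these bulk samples a smaller share of cells with the RNA and less RNA per cell cannot be told apart. NORAD was called in every alternative and with every sample left out (log2 fold change between -0.95 and -0.81 over the left-out samples). NEAT1 was called with every sample left out, but not in a fit on all 16 samples (adjusted p = 0.0825, edgeR).

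Among the host RNAs, GAS5 had 170.3, 176 and 205 RPM in shAjuba1 against 142 and 149 RPM in shScrambled. SNHG1 had 188, 196 and 225 RPM against 157 and 165 RPM, and SNHG8 24.6, 27.3 and 29.9 RPM against 22.8 and 21.1 RPM. In all 3 the groups did not overlap, and they were higher than in shScrambled by log2 fold changes of 0.32 (adjusted p = 0.0114), 0.32 (adjusted p = 0.0118) and 0.30 (adjusted p = 0.0388), all tested with edgeR. Without either shScrambled sample, or with all 16 samples in the fit, none of these 3 passed, and SNHG8 also missed the threshold without shAjuba1 2. The level of SNHG5 was 90.8, 97.9 and 89.1 RPM against 97.2 and 85.1 RPM (log2 fold change 0.01, standard error 0.0902), and the groups overlapped. ZFAS1 had 88.0, 89.0 and 88.9 RPM against 82.2 and 79.4 RPM, and its log2 fold change, 0.12, did not pass (adjusted p = 0.260, edgeR). Parental cells had 169 and 151 RPM of GAS5, 187 and 149 RPM of SNHG1, and 28.0 and 25.9 RPM of SNHG8. Against Parental, shScrambled had log2 fold changes of -0.14, -0.07 and -0.30 for these RNAs, and only SNHG8 passed. shAjuba1 was not tested against Parental.

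Other snoRNA host genes, from a list of 21 that leaves out the 5 host genes above, were also examined in shAjuba1. Of the 21, 15 passed (71.4%), all of them higher, where 38.4% of all genes tested passed. Only 6 passed without shScrambled 1, 9 without shScrambled 2 and 8 with all 16 samples in the fit, all higher. The median log2 fold change of the list was 0.39 against -0.01 over all genes tested. DANCR had the smallest adjusted p (log2 fold change 0.71, adjusted p = 3.34e-05), followed by SNHG17 (0.62), SNHG4 (0.56) and SNHG3 (0.54), all by edgeR. SNHG6 (-0.17), SNHG29 (-0.15) and SNHG14 (-0.39) had negative values that did not pass. In shScrambled against Parental, DANCR and SNHG3 passed as lower, while SNHG17 and SNHG4 did not pass. The pyrimidine-rich start was present in 9.52% of the main GENCODE transcripts of these 21 genes, whose RefSeq starts were not examined. Of the mRNAs of cytosolic ribosomal proteins, in which it is common, 11 of 79 (13.9%) passed in shAjuba1 against shScrambled, all lower, with a median of -0.04. Among the factors reported here of nonsense-mediated decay, the pathway that breaks down spliced host RNAs, UPF1 (0.31), UPF3A (0.30), SMG5 (0.24) and SMG9 (0.30) were higher and UPF3B (-0.34) was lower. Whether the pyrimidine-rich start or this pathway had a part in the levels of the host RNAs was not tested.

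**Figure D2:**
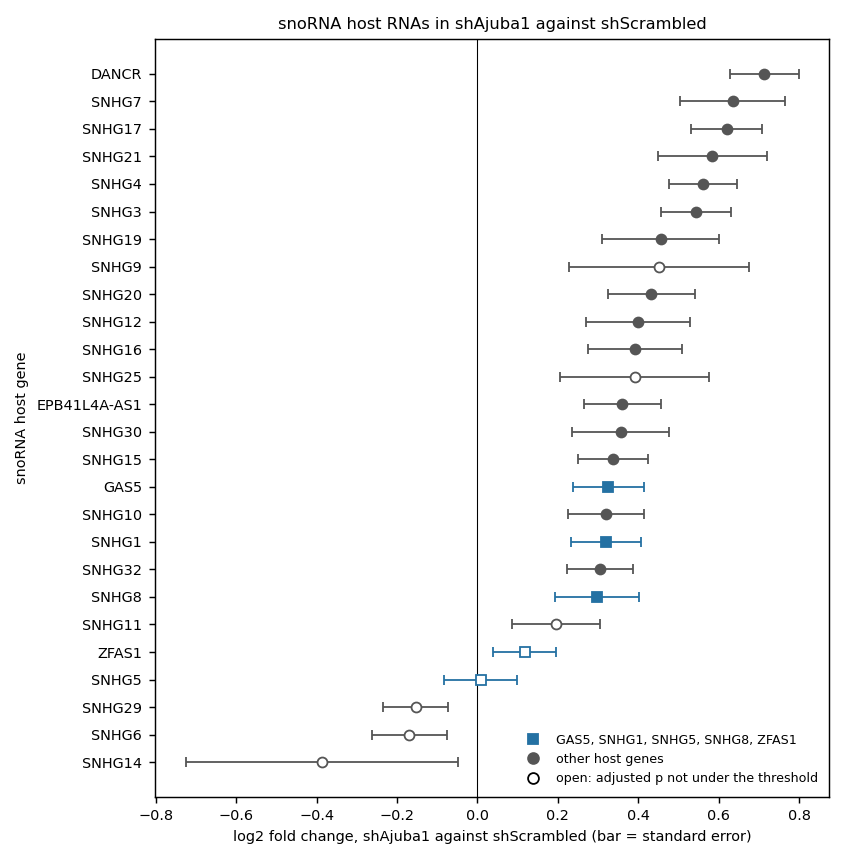
Log2 fold change of 26 snoRNA host genes in shAjuba1 against shScrambled (horizontal axis), with bars for the standard error of edgeR's fit. Squares are GAS5, SNHG1, SNHG5, SNHG8 and ZFAS1, circles the 21 other host genes, and filled symbols have an adjusted p under 0.05. No filled symbol lies below 0, and SNHG5 is at 0.01.

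Genes that work with or lie beside the nuclear RNAs and NORAD were also examined in shAjuba1 against shScrambled. The counts below stand against 38.4% of all genes tested that passed in this comparison. Among the paraspeckle protein genes reported here, TARDBP was higher in shAjuba1 (log2 fold change 0.22), while the core proteins NONO (-0.02), SFPQ (-0.06) and PSPC1 (0.04) did not. Of 12 nuclear speckle protein genes, 6 passed, all higher, with PNN at 0.51 and SON, a scaffold of speckles, at 0.32. Of 9 other chromatin-associated or nuclear lncRNAs, 2 passed, HOTAIRM1 higher (0.42) and HOTAIR, a lncRNA of the HOXC cluster, lower (-0.69). Among the coding genes around MALAT1 and NEAT1 reported here, EHBP1L1 (0.41) was higher and LTBP3 (-0.43) lower. PUM2 (-0.02), which encodes a PUMILIO protein, and ELAVL1 (0.07), which encodes HuR, did not pass. EPB41L1, the coding gene next to NORAD on chromosome 20, moved the other way to NORAD, with a log2 fold change of 1.34 (standard error 0.0886, adjusted p = 2.37e-07, edgeR) and mean levels of 107 RPM in shAjuba1 and 41.9 RPM in shScrambled. PRSS12, which overlaps 37.6% of the exon bases of SNHG8 on the opposite strand, fell by 1.68 on the log2 scale (adjusted p = 1.21e-04, edgeR) at only 14 to 70 counts per sample. The sources used here do not give the strand setting of the counting, so reads from PRSS12 and SNHG8 may not have been told apart. In the imprinted domain of KCNQ1OT1, 5 of 8 genes passed, of which the growth inhibitor CDKN1C (0.82), PHLDA2 (0.56), OSBPL5 (0.56) and TSSC4 (0.51) were higher and SLC22A18 (-0.91) lower, while KCNQ1OT1 itself had 139, 137 and 113 RPM against 106 and 117 RPM (log2 fold change 0.20, adjusted p = 0.136, edgeR).

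shAjuba2, with the other shRNA and the same shScrambled samples as control, had none of the 10 lncRNAs past the threshold, against 7.63% of 22446 genes tested. DESeq2 also called none, and 1 of the 10 had an unadjusted p under 0.05 in edgeR, OIP5-AS1 (log2 fold change -0.30, standard error 0.118, adjusted p = 0.156). Over all genes, 5882 of 22446 had an unadjusted p under 0.05. NORAD had a log2 fold change of -0.16 (standard error 0.135) and NEAT1 one of -0.20 (standard error 0.249). GAS5 (0.30), SNHG1 (0.23) and ZFAS1 (0.14) had values of the same sign as in shAjuba1. So had MALAT1, KCNQ1OT1, OIP5-AS1 and NORAD, whereas NEAT1, SNHG5 and SNHG8 had the other sign. Because both comparisons use the same shScrambled samples, their signs are not independent, and shared signs were not counted over all genes. The standard errors of GAS5, SNHG1 and ZFAS1, 0.163, 0.164 and 0.114, were larger than in shAjuba1. Without shAjuba2 2, NEAT1 passed (log2 fold change -0.47, adjusted p = 0.0161, edgeR). None of the 21 other host genes passed in edgeR (7 at an unadjusted p under 0.05, against 5882 of 22446 genes) or in DESeq2, and the median of the list was 0.23. Without shAjuba2 2, 5 of the 21 passed as higher and 1 as lower.

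Compared directly, shAjuba1 and shAjuba2 differed in 2 of the 10 lncRNAs, against 19.6% of 21600 genes tested. NORAD was lower in shAjuba1 than in shAjuba2 (log2 fold change -0.71, standard error 0.121, adjusted p = 0.00343, edgeR), and NEAT1 was higher (0.84, standard error 0.216, adjusted p = 0.0231, edgeR). In both, all samples of one line lay beyond all samples of the other. NEAT1 missed the threshold without shAjuba1 2, shAjuba1 3 or shAjuba2 1 (adjusted p up to 0.105, edgeR), whereas NORAD passed with every sample left out. SNHG8 did not overlap either and missed the threshold (0.37, adjusted p = 0.0571, edgeR), which it passed without shAjuba2 2 (adjusted p = 0.0405) or shAjuba2 3 (adjusted p = 0.0445). The summed level of replication-dependent histone mRNAs, which lack a poly(A) tail, was 254 to 392.1 RPM in shAjuba1 and 424 to 589.9 RPM in shAjuba2 (52 of 54 below 0, 14 passed as lower and 1 as higher). Ribosomal protein mRNAs had a median of 0.35 (76 of 79 above 0, none passed in edgeR, 7 at an unadjusted p under 0.05), and the summed level of non-polyadenylated structural RNAs was 80.2 to 174 RPM in shAjuba1 and 152 to 672 RPM in shAjuba2. Their part in the differences of NEAT1 and NORAD was not tested. EPB41L1 was higher in shAjuba1 than in shAjuba2 by 1.57 on the log2 scale (adjusted p = 9.43e-05, edgeR), and AJUBA itself did not pass (-0.26, adjusted p = 0.141, edgeR).

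**Figure D3:**
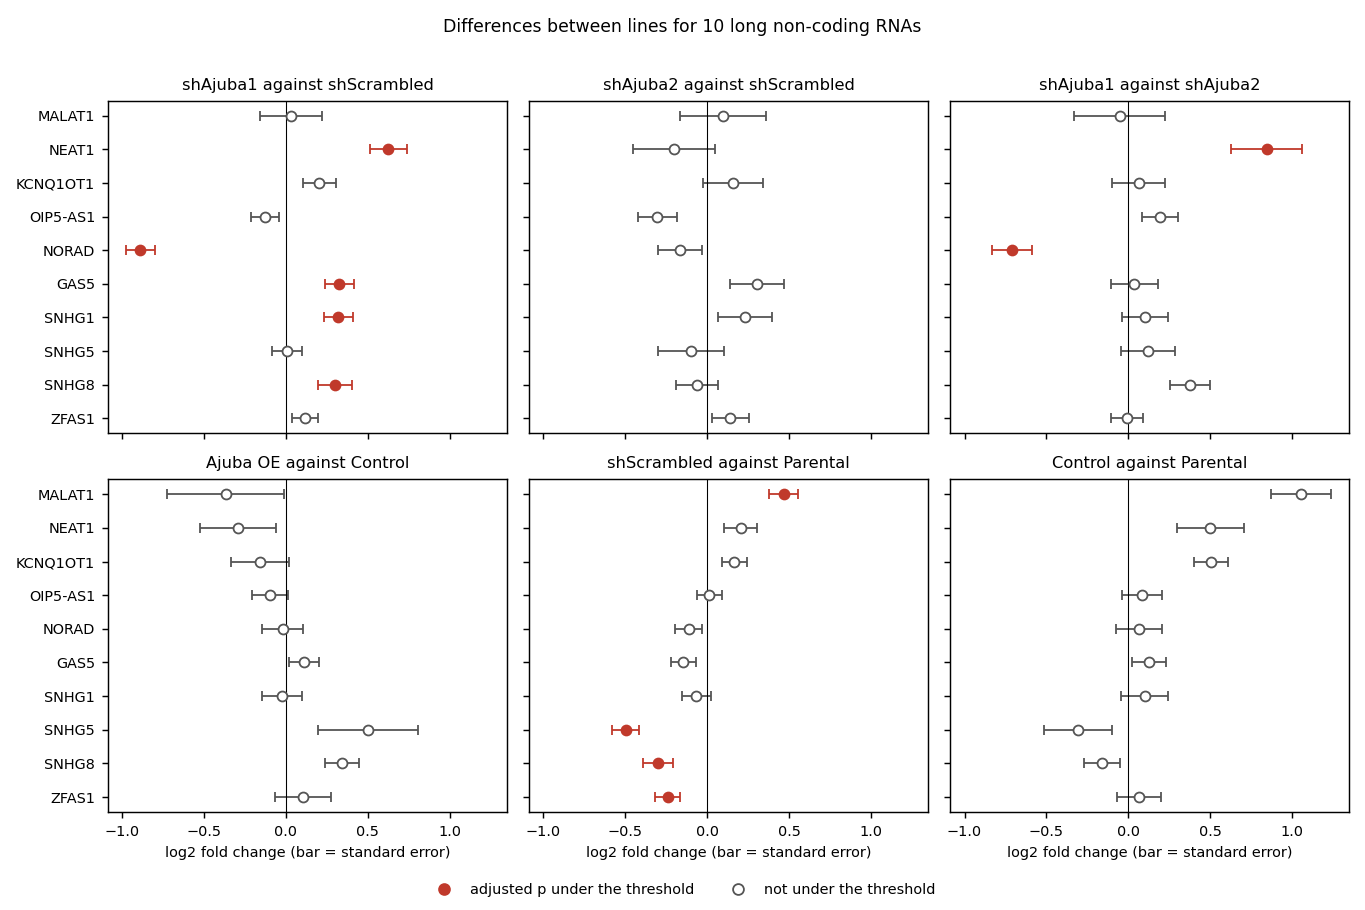
Log2 fold changes of the 10 lncRNAs in 6 comparisons of lines (horizontal axis, 0 marked by a line), with bars for the standard error. Filled red points have an adjusted p under 0.05 by edgeR's quasi-likelihood test, and these are 5 in shAjuba1 against shScrambled, 2 in shAjuba1 against shAjuba2, 4 in shScrambled against Parental and none in the other panels.

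In Ajuba OE against Control none of the 10 lncRNAs passed, against 5.43% of 21140 genes tested. DESeq2 called none as well. In edgeR 1 had an unadjusted p under 0.05, against 3928 of 21140 genes tested, and this was SNHG8. It had 32.2, 27.1 and 27.6 RPM in Ajuba OE and 23.4, 22.5 and 25.8 RPM in Control. These did not overlap (log2 fold change 0.34, standard error 0.104, adjusted p = 0.122, edgeR), but overlap was not counted over all genes. In the fit on all 16 samples SNHG8 passed (adjusted p = 0.0344, edgeR). NORAD had 1285, 1129.9 and 1301 RPM against 1463, 1186 and 1287 RPM, with a log2 fold change of -0.02 and a standard error of 0.125. SNHG5 had the largest positive value (0.50, standard error 0.305), which was 0.11 without Ajuba OE 1. None of the 21 other host genes passed in edgeR (3 at an unadjusted p under 0.05) or in DESeq2, with a median of 0.16 against -0.01 over all genes. EPB41L1 had a log2 fold change of 0.30 (adjusted p = 0.0927, edgeR).

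The control lines were compared with Parental cells to see how far transduction and selection went with these RNAs. They share the Parental samples, so the comparisons are not independent of each other. In shScrambled 4 of the 10 passed, against 30.7% of 21289 genes tested. MALAT1 was 1.38-fold higher (log2 fold change 0.47, standard error 0.0862, adjusted p = 2.28e-04, edgeR). SNHG5 (-0.50), SNHG8 (-0.30) and ZFAS1 (-0.24) were lower, with 97.2 and 85.1 RPM of SNHG5 against 121 and 135 RPM in Parental. With all 16 samples in the fit, none of the 4 passed, MALAT1 then having an adjusted p of 0.557 (edgeR). SNHG8 and ZFAS1 also missed the threshold without shScrambled 2, SNHG8 without Parental 1 and ZFAS1 without Parental 2, and NEAT1 passed without Parental 1 (0.38, adjusted p = 0.0225, edgeR). Ribosomal protein mRNAs were lower too (55 of 79 passed, median -0.29), and all 13 mitochondrial mRNAs were higher (median 0.59), and their part in the differences of the lncRNAs was not tested. Of the 21 other host genes, 5 passed, SNHG20 higher (0.31) and DANCR (-0.73), SNHG3 (-0.27), SNHG19 (-0.37) and SNHG30 (-0.40) lower. Without shScrambled 2, 2 of the 21 passed and with all 16 samples in the fit 1 passed, all lower.

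In Control none of the 10 passed against Parental, where only 0.37% of 21644 genes did. DESeq2 called MALAT1 and KCNQ1OT1, where 470 of 21510 genes tested passed. In edgeR 3 had an unadjusted p under 0.05, all nuclear, against 4219 of 21644 genes and 1030 of 4220 lncRNA genes tested. MALAT1 had the largest log2 fold change of the 10 lncRNAs in any pair of lines compared (log2 fold change 1.06, standard error 0.183, adjusted p = 0.0708, edgeR), with every Control sample at 11856 RPM or more and both Parental samples at 6944 RPM or less. KCNQ1OT1 (0.50, adjusted p = 0.0993, edgeR) and NEAT1 (0.50, adjusted p = 0.247, edgeR) did not overlap with Parental either. Without Control 2, MALAT1 (0.93) and KCNQ1OT1 (0.44) passed. Other classes of RNA moved in the same comparison. The median log2 fold change was 0.31 over 4220 lncRNA genes tested (3283 above 0), -0.50 over 79 ribosomal protein mRNAs (78 below 0), 0.40 over 13 mitochondrial mRNAs (13 above 0) and 0.44 over 55 replication-dependent histone mRNAs (51 above 0), and the part of these in the values of the nuclear RNAs was not tested. The values of the 7 other lncRNAs lay between -0.31 for SNHG5 and 0.13 for GAS5.

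Replicate 2 was compared with the other replicates of its line because its libraries in shAjuba2, Control and Ajuba OE were already known to stand apart. These 3 libraries had the lowest sums of ribosomal protein mRNAs (13804, 18108 and 22853 RPM, against at least 28172 RPM in the others). Their sums of mitochondrial mRNAs were high (126531, 114493 and 113198 RPM) but did not set them apart, as shScrambled 2 had 114533 RPM. The part of these in the differences of the lncRNAs was not tested. MALAT1 was highest in replicate 2 in 5 of 6 lines, and NEAT1, KCNQ1OT1 and SNHG1 in 4 of 6 each. NORAD was lowest in replicate 2 in 5 of 6 lines, and OIP5-AS1, SNHG5, SNHG8 and ZFAS1 in 4 of 6 each. Parental and shScrambled have 2 samples each, so replicate 2 must be either highest or lowest there. Such places were not counted over all genes.

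Over all 6 lines no gene passed in edgeR's test of replicate 2 with the line in the model (0.0% of 23597 genes, with 5861 at an unadjusted p under 0.05), and so none of the 10 lncRNAs did. DESeq2 called 1523 genes and none of the 10. The unadjusted p was under 0.05 for MALAT1 (log2 difference 0.40, standard error 0.169), NEAT1 (0.31, standard error 0.114), KCNQ1OT1 (0.24, standard error 0.0838) and SNHG5 (-0.34, standard error 0.141). For NORAD the difference was -0.09 (standard error 0.0571). NEAT1 passed without Parental 1, Parental 2 or shAjuba1 2 (adjusted p 0.0412 to 0.0459, edgeR) and SNHG5 without shAjuba1 2 (adjusted p = 0.0441, edgeR). In shAjuba2, Control and Ajuba OE alone, 8085 of 22198 genes tested passed. Among them were NEAT1 (0.59), KCNQ1OT1 (0.36), SNHG1 (0.30) and SNHG5 (-0.67), while MALAT1 (0.53, adjusted p = 0.0596, edgeR) did not pass. These are the lines in which the shift had been noticed, so their calls describe it and do not test it.

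In Parental, shScrambled and shAjuba1 alone no gene passed (265 at an unadjusted p under 0.05), and the differences were 0.24 for MALAT1, 0.10 for KCNQ1OT1, -0.04 for NEAT1 and 0.05 for SNHG5. Whether the difference varied between the lines was tested with an interaction of line and replicate 2. No gene passed in edgeR (3333 at an unadjusted p under 0.05), and the smallest values among the 10 lncRNAs were those of NEAT1 (adjusted p = 0.238) and SNHG1 (adjusted p = 0.310). By line, NEAT1 in replicate 2 differed from the others by 0.64, 0.48 and 0.56 in shAjuba2, Control and Ajuba OE, and by 0.21 in shScrambled, -0.02 in shAjuba1 and -0.35 in Parental (log2 RPM). For MALAT1 the values were all positive, from 0.06 in shScrambled to 0.71 in shAjuba2. SNHG5 differed by -0.67, -0.59 and -0.77 in shAjuba2, Control and Ajuba OE and by -0.19 to 0.15 in the remaining lines. In Ajuba OE these differences rest in part on replicate 1, with MALAT1 at 4879, 12156 and 12713 RPM and SNHG5 at 212, 92.1 and 116 RPM in replicates 1 to 3. For MALAT1 in shAjuba1 the low library was replicate 3 (6184 RPM).

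**Figure D4:**
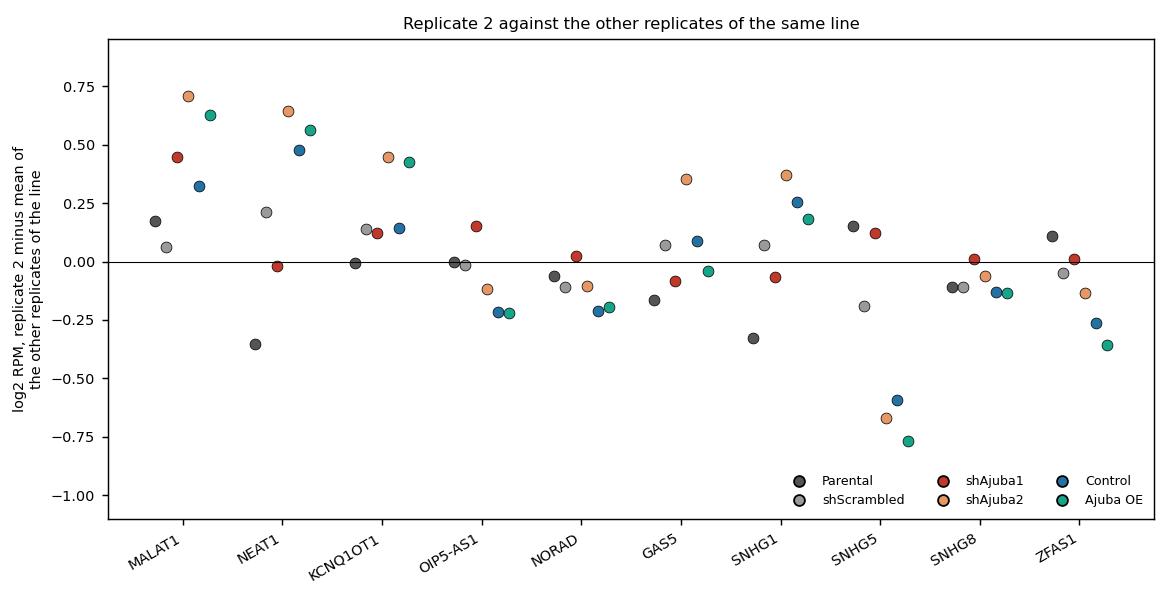
Log2 RPM of replicate 2 minus the mean of the other replicates of the same line (vertical axis) for the 10 lncRNAs, with 1 point per line. MALAT1 lies above 0 in all 6 lines, and SNHG5 falls to -0.77 in Ajuba OE and lies between -0.19 and 0.15 in Parental, shScrambled and shAjuba1. In Ajuba OE both values rest in part on replicate 1, which had the lowest MALAT1 and the highest SNHG5 of that line.

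Among 14582 genes with a mean of at least 1 RPM, the genes whose levels ran most closely with those of 4 lncRNAs over the 16 libraries were listed by Pearson's r of log2(RPM + 1), as a description. The libraries share lines, depth and the shift of replicate 2, so r mixes these. For MALAT1 they were KCNQ1OT1 (r = 0.908), SNHG22 (0.895) and GP6 (0.892). For NEAT1 they were ADIRF-AS1 (0.958), COL16A1 (0.943) and CCDC18-AS1 (0.932), for NORAD STX6 (0.973), TIAM1 (0.971) and ANP32E (0.971), and for GAS5 CALML4 (0.887), GNG13 (0.854) and NSUN2 (0.842).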

How the data were processed

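RNA of 16 samples of 6 SW480 lines was sequenced as stranded mRNA libraries with paired reads of 50 bp. The authors aligned the reads to GRCh38 with HISAT2 and counted them with featureCounts, and deposited whole-number counts per gene. Versions, annotation release and strand setting are not given in the sources used here. Of 66023 genes, 56434 matched GENCODE 44 by identifier and held 99.8% of the counts. RPM is the count divided by the sample total times 1000000, and RPKM is RPM per 1000 annotated exon bases, joined over all transcripts of the gene.

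Each pair of lines was fitted alone with edgeR 4.0.16 (limma 3.58.1, R 4.3.3) after filterByExpr and TMM scaling, with the quasi-likelihood test and Benjamini-Hochberg adjustment over all genes tested, at a threshold of 0.05. The fits across lines and of replicate 2 used all 16 samples. The study itself used DESeq2, which was run here as an alternative (version 1.42.0). Other alternatives were size factors, filters, a joint fit, a replicate block and leaving out each sample. The tests were checked on simulated counts.

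The 10 genes are those of the working list, and other genes were named from gene lists, by the smallest adjusted p (up to 4 per list and direction), by their place beside one of the 10, or by the closest pattern. Listed genes named although they did not pass were picked after their values were seen. Genes and lists were chosen with earlier results of these data known. Figures were drawn with matplotlib 3.10.9 and tables made with pandas 2.3.3. Some listed genes are not reported here.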

Additional observations from a re-analysis of the deposited data

Results flagged for a closer look

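Both knockdown lines were made against the same gene. When they were tested against each other, 2 of the 10 lncRNAs differed, against 19.6% of 21600 genes tested. The count alone therefore does not set the 10 apart. NEAT1 differed by a log2 fold change of 0.84 (shAjuba1 over shAjuba2, adjusted p = 0.0231 by edgeR's quasi-likelihood test), and each of the 3 shAjuba1 samples was higher than each of the 3 shAjuba2 samples. NEAT1 missed the threshold when some single samples were left out (adjusted p up to 0.105, edgeR). NORAD differed by -0.71 (adjusted p = 0.00343, edgeR), with each shAjuba1 sample lower. Histone mRNAs were lower in shAjuba1 as well (52 of 54 below 0, median log2 fold change -0.62) and ribosomal protein mRNAs had a median of 0.35. The cause of these differences was not tested.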

How the results depend on the processing

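The lowest count of these RNAs was 803, and each line had 2 or 3 samples. When a line is left with 1 sample, that sample is assumed to vary like those of the other line. Of the values for single genes, 615 kept their direction and their side of the threshold under the alternatives that leave out no sample, 32 passed only there, 10 were lost and 14 changed sign. With a sample left out the numbers were 621, 17, 20 and 35. Causes were not tested.

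Counts of the 10 lncRNAs that passed changed as follows. With all 16 samples in the fit, 1 passed in shAjuba1 against shScrambled (NORAD), 1 in Ajuba OE against Control (SNHG8) and 0 in shScrambled against Parental. Of the 23597 genes tested in that fit, 5467, 2386 and 1696 passed in these comparisons. In Control against Parental, 2 of the 10 passed in DESeq2 and 3 with a filter of at least 1 count. Over all genes, 470 of 21510 and 1947 of 40477 passed in these fits. Across the 6 lines, 5 of the 10 passed in DESeq2's likelihood ratio test, 5 with at least 1 count and 5 with replicate 2 as a covariate. Over all genes, 11767 of 28871, 12986 of 45067 and 13043 of 23597 passed in these fits. For replicate 2, 4 of the 10 passed in shAjuba2, Control and Ajuba OE alone, 1 in the 4 lines with 3 replicates and 4 with at least 1 count. Over all genes, 8085 of 22198, 2109 of 22652 and 3143 of 45067 passed in these fits. With the replicate number as a block, 3 passed in Ajuba OE against Control (NEAT1, SNHG5 and SNHG8). In shAjuba1 against shScrambled 7 of the 10 then passed, where 8863 of 21082 genes did. shScrambled has no replicate 3, so with the block shAjuba1 3 and shAjuba2 3 added nothing to the differences from shScrambled. Of the 21 other host genes, 7 then passed as higher in Ajuba OE against Control and 4 as higher in shAjuba2 against shScrambled. Genes passing rose from 1147 to 5140 of 21140 in Ajuba OE against Control and from 1713 to 5377 of 22446 in shAjuba2 against shScrambled. Deviations of same-numbered samples in Ajuba OE and Control correlated at 0.505 for replicate 2, the libraries that share the low ribosomal protein sums, but at 0.099 for replicate 1 and -0.049 for replicate 3. The labels tie the numbers to no shared batch or day, so the samples were not treated as paired. Without 1 sample, the counts were 2 to 7 in shAjuba1 and 0 to 1 in shAjuba2 against shScrambled, 0 to 0 in Ajuba OE against Control, 2 to 4 in shScrambled and 0 to 2 in Control against Parental, 1 to 3 in shAjuba1 against shAjuba2, 2 to 4 across the lines and 0 to 2 for replicate 2.

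Values that changed sign under an alternative that leaves out no sample were as follows. In Ajuba OE against Control, NORAD was 0.018 in DESeq2 and 0.0053 with at least 1 count, and SNHG1 was 0.016 and 0.0034. OIP5-AS1 in shScrambled against Parental was -0.0062 with all 16 samples and -0.016 in DESeq2, and GAS5 in shAjuba1 against shAjuba2 was -0.0082 with library size alone. For replicate 2 in Parental, shScrambled and shAjuba1 alone, NEAT1 was -0.045 (0.31 over all 6 lines), OIP5-AS1 0.067, GAS5 -0.055, SNHG1 -0.10, SNHG5 0.047 (-0.34 over all 6 lines), ZFAS1 0.030 and AJUBA -0.034.

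Ranges over left-out samples that crossed 0 were as follows. In shAjuba1 against shScrambled they were -0.12 to 0.26 for MALAT1 and -0.094 to 0.13 for SNHG5. In shAjuba2 against shScrambled they were -0.20 to 0.26 for MALAT1, -0.025 to 0.30 for KCNQ1OT1, -0.19 to 0.083 for SNHG5 and -0.12 to 0.0098 for SNHG8. In Ajuba OE against Control they were -0.33 to 0.024 for KCNQ1OT1, -0.090 to 0.070 for NORAD, -0.10 to 0.064 for SNHG1 and -0.091 to 0.21 for ZFAS1. In shScrambled against Parental they were -0.0091 to 0.019 for OIP5-AS1 and -0.22 to 0.10 for SNHG1. In Control against Parental they were -0.027 to 0.12 for NORAD, -0.053 to 0.23 for SNHG1, -0.040 to 0.13 for ZFAS1 and -0.012 to 0.083 for AJUBA. In shAjuba1 against shAjuba2 they were -0.20 to 0.24 for MALAT1, -0.063 to 0.24 for KCNQ1OT1, -0.063 to 0.18 for GAS5, -0.065 to 0.22 for SNHG5 and -0.045 to 0.018 for ZFAS1. For replicate 2 they were -0.017 to 0.094 for GAS5 and -0.038 to 0.071 for AJUBA.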
